A study of Oryza sativa with 4 samples.

Results

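Of 10 regulators of panicle branching and meristem size, 5 could be followed in young panicles of wild-type rice (WT) and of the pseudoviviparous mutant *phoenix* (*pho*), in which plantlets grow in place of flowers. They were *RFL*, *LAX1*, *NL1*, *FON1* and *RCN1*, each measured by 1 probe set, among the 17905 genes that had a probe set of their own on the array. The 10 names were looked up as symbols or synonyms in the RefSeq gene annotation of rice. *MOC1*, *APO1*, *TAW1*, *RCN2* and *RCN3* were not matched by name and were not analysed here. *TAW1* is also known as *G1L5*, and the gene listed under that name had no probe set of its own.

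A rice panicle is built by lateral meristems, which form branches for as long as they stay indeterminate and then turn into spikelet meristems. *RFL* (also *APO2*) is the rice counterpart of *LEAFY* from *Arabidopsis*, and it keeps the panicle meristem in its branching state. *LAX1* encodes a bHLH transcription factor needed to start lateral meristems, and *NL1* (*GATA15*) encodes a GATA transcription factor that represses the outgrowth of bracts below the branches. *FON1* encodes a receptor kinase of the CLAVATA1 type, which restricts the size of the floral meristem. *RCN1* needs care, because 2 kinds of rice gene bear this name. The gene that the annotation lists under it is *ABCG5* (*WBC5*), an ABC transporter named after the reduced culm number of its mutant, and the *RCN1* values below belong to that gene, which is needed for the suberin barrier of roots. The *TFL1*-like gene of the same name was not analysed here.

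Total RNA from panicles was measured on Affymetrix arrays of the rice genome, and each genotype had 1 array per panicle length, 5–8 cm and 9–12 cm. WT was the *indica* cultivar Zhongxian 3037. *pho* arose spontaneously among the offspring of this cultivar and carries a base substitution in *OsMADS15* together with silenced *OsMADS1*, and both *pho* arrays stand for this 1 mutant. All plants grew in paddy fields, and the labels do not say whether separate plants were sampled. Each p below thus measures the spread between these samples, which for *pho* against WT includes panicle length. For the comparison of lengths, that spread is how far the difference between lengths varied between the genotypes. At 5–8 cm the signal of *OsMADS1* was 10166 in WT against 4.6 in *pho*, and at 9–12 cm 10671 against 109. *OsMADS15* was at 14444 and 15321 in the WT samples, and at 15892 and 16022 in those of *pho*. One line in the description of the 9–12 cm WT sample names *pho*, whereas its title, source and genotype give WT, and it was used as WT. The values are MAS5 signals on a linear scale, with a median over all probe sets of 49.0 to 68.1 per array. The *pho* array of 9–12 cm stood apart, with correlations of 0.796 to 0.827 to the others, which correlated at 0.877 to 0.935 with one another. For the actin control, the ratio of 3′ to 5′ probe sets, which grows as RNA is degraded or incompletely transcribed, stood at 10.6 in WT against 3.28 in *pho* for 5–8 cm, and at 4.95 against 5.26 for 9–12 cm.

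At each panicle length the signals of *RFL* and *NL1* were higher in *pho* than in WT, and those of *FON1* were slightly lower. *LAX1* was higher in *pho* at 5–8 cm and lower at 9–12 cm. *RCN1* was higher in *pho* at each length, but from near 0 at 5–8 cm, so that over both lengths its genotypes overlapped. None of the differences tested passed the threshold. Of the 5 genes, 4 averaged 100 or more over the 4 arrays and were tested in limma on log2(signal + 16). An adjusted p under 0.05 was found for 0 of the 4 and for 0% of the 23929 probe sets tested. With panicle length as a block, 8 probe sets were called higher in *pho* and 32 lower, none of the 4 among them. At an unadjusted p under 0.05 there was 1 of the 4, *RFL*, against 6.83% of all tested probe sets. Both *pho* arrays lay above both WT arrays for 2 of the 4, against 17.9% of all tested probe sets, and below them for 1 of the 4, against 21.1%. With so few genes, these counts describe the genes and are not a result about the group. In RNA from panicles, fewer cells of a type and less RNA per cell cannot be told apart.

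**Figure D1:**
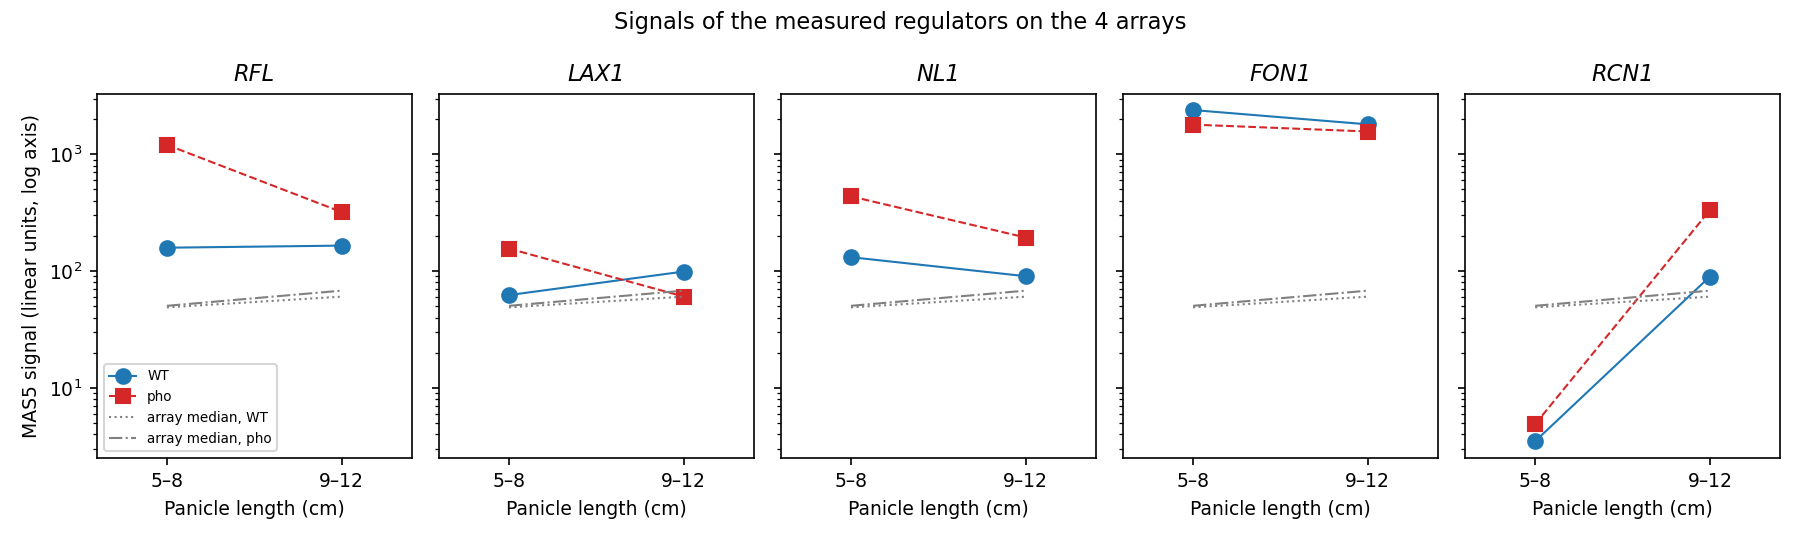
MAS5 signal (log axis) of *RFL*, *LAX1*, *NL1*, *FON1* and *RCN1* against panicle length, with 1 point per array, circles for WT, squares for *pho*, and grey lines joining the median signals of the arrays of each genotype. *RFL* stands at 1204.5 in the *pho* panicles of 5–8 cm and between 159 and 320.4 in the other samples, and *RCN1* lies far below the array medians at 5–8 cm in both genotypes.

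*RFL* had the highest log2 fold change between the genotypes among the 4 tested genes. At 5–8 cm its signal was 159 in WT against 1204.5 in *pho*, and at 9–12 cm 165 against 320.4. Both WT signals were nearly equal, both *pho* signals were higher, and the shorter *pho* panicles stood far above the rest. *pho* thus exceeded WT 7.59-fold in the shorter and 1.94-fold in the longer panicles. WT averaged 162 ± 4.74 (SD, n = 2) and *pho* 762 ± 625 (SD, n = 2), so that the spread between the *pho* arrays was larger than the difference between the means. The log2 fold change of *pho* over WT was 1.85 (SE 0.669, adjusted p = 0.709 from limma). It was 0.92 without the *pho* array of 5–8 cm and 2.78 without that of 9–12 cm. At 5–8 cm, where the ratio was larger, the actin control ratio also differed most between the genotypes, and its part in the value was not tested.

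*NL1* likewise had higher signals in both *pho* arrays than in both WT arrays, by smaller ratios. In the 5–8 cm panicles the signal was 132 in WT against 436 in *pho*, and in the 9–12 cm panicles 90.5 against 194. The groups did not overlap, and within each genotype the longer panicles had the lower value. *pho* exceeded WT 3.31-fold at 5–8 cm and 2.14-fold at 9–12 cm, and its mean log2 difference was 1.30 (SE 0.538, adjusted p = 0.739 from limma). Without the *pho* array of 5–8 cm the log2 fold change was 0.74. WT averaged 111 ± 29.1 (SD, n = 2) and *pho* 315 ± 171 (SD, n = 2), and the spread was larger within *pho* than within WT.

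*LAX1* had low signals in every sample. It read 62.4 in WT against 156 in *pho* at 5–8 cm, and 99.2 against 60.6 at 9–12 cm. *pho* was thus the higher genotype in the shorter panicles and the lower one in the longer panicles, where its signal lay below the array median of 68.1. WT averaged 80.8 ± 26.0 (SD, n = 2) and *pho* 108 ± 67.5 (SD, n = 2), so the means differed by less than the spread within *pho*. With a mean signal under 100 over the 4 arrays, *LAX1* was not tested. Its transcripts are known from a narrow band of cells beside each new meristem, a small part of a panicle. Whether this bears on its low signals here was not tested.

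*FON1* was the most even of the 5 genes. The 5–8 cm panicles gave 2391 in WT against 1795 in *pho*, and the 9–12 cm panicles 1804 against 1567. Both *pho* values lay below both WT values, but the higher *pho* value and the lower WT value were nearly equal, and the genotypes overlapped once arrays were centred on their medians. The ratio of WT over *pho* was 1.33 at 5–8 cm and 1.15 at 9–12 cm. The log2 fold change of *pho* over WT was -0.31 (SE 0.296, adjusted p = 0.832 from limma), about as large as its own error. From the lowest to the highest array, *FON1* spanned 0.60 on the log2(signal + 16) scale, where the median span of all tested probe sets was 0.88 and 28.4% of them spanned less. *RFL* spanned 2.80 on that scale, and 93.2% of the tested probe sets spanned less.

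*RCN1*, the transporter gene *ABCG5*, had signals above the array medians only at 9–12 cm. At 5–8 cm the signal was 3.5 in WT against 4.9 in *pho*, and at 9–12 cm it was 89.8 against 332. At 5–8 cm both genotypes were far below the array medians of 49.0 and 50.5, where the log2(signal + 16) ratio of 0.10 is set mainly by the added constant. At 9–12 cm *pho* was 3.70 times WT. The mean over the 4 arrays was 108, so *RCN1* passed the filter on low signals only through the *pho* array of 9–12 cm, the one that stood apart. Its log2 fold change of *pho* over WT was 0.91 (SE 1.66, adjusted p = 0.908 from limma), and without that array it was -1.12.

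**Figure D2:**
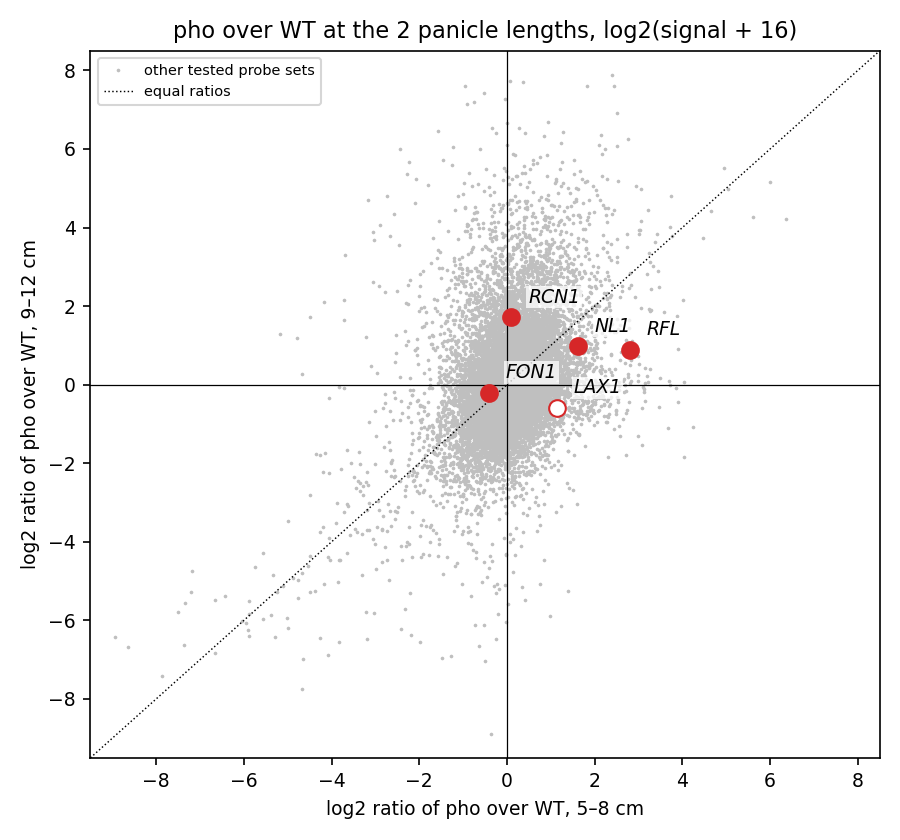
Log2 ratio of *pho* over WT on the log2(signal + 16) scale at 9–12 cm (vertical) against 5–8 cm (horizontal) for the 23929 tested probe sets (grey) and the 5 genes (red, with *LAX1* open because it was not tested); the dotted line marks equal ratios. *RFL* lies at 2.80 and 0.89, *NL1* at 1.62 and 0.98, *RCN1* at 0.10 (set mainly by the added constant) and 1.72, *LAX1* at 1.13 and -0.59 and *FON1* at -0.41 and -0.20.

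The size of the difference between *pho* and WT was not the same at both lengths. On the log2(signal + 16) scale the ratio of *RFL* was 2.80 at 5–8 cm and 0.89 at 9–12 cm, and that of *NL1* was 1.62 and 0.98, so that both were larger in the shorter panicles. Over all tested probe sets the median ratio was 0.02 at 5–8 cm and -0.10 at 9–12 cm. With 1 array per genotype and length, the change of the *pho* effect with length could not be tested for either gene.

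Between 5–8 and 9–12 cm, *NL1* and *FON1* had lower signals in the longer panicles of both genotypes, which is 2 of the 4 tested genes against 35.0% of all tested probe sets. *RCN1* had higher signals in the longer panicles of both genotypes, 1 of the 4 against 27.5%. With genotype as a term in limma, 0 of the 4 passed for length at an adjusted p under 0.05, as did 0% of all tested probe sets. At an unadjusted p under 0.05 there was 1, *RCN1*, against 10.6% of all tested probe sets, but *RCN1* had passed the filter only through an array of 9–12 cm, where it is high, so this count says nothing for a difference with length. The log2 fold change of 9–12 over 5–8 cm was 3.25 for *RCN1* (SE 0.882, adjusted p = 0.410 from limma), and it was 5.08 with a pseudocount of 1 and 1.86 with one of 64, since it is taken over signals far below the array medians. The same quantity was -0.79 for *NL1* (SE 0.454, adjusted p = 0.556 from limma). For *FON1* it was -0.30 (SE 0.261, adjusted p = 0.672 from limma), where the median of all tested probe sets was -0.08. After median centring of the arrays, the value of *FON1* was -0.59 and that median was -0.36. *RFL* hardly differed with length in WT, where the log2 ratio of 9–12 over 5–8 cm was 0.05, whereas it was -1.86 in *pho*, and its log2 fold change over both genotypes was -0.90 (SE 0.550, adjusted p = 0.569 from limma).

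Around these genes, 5 lists of related regulators were looked up in the same way, and 10 genes of these lists besides the 5 above had a probe set that could be tested. Both *pho* arrays lay above both WT arrays for 5 of the 10 (17.9% of all tested probe sets), below them for 1 (21.1%), and the genotypes overlapped for 4, in the signals as deposited. In limma, 0 of the 10 had an adjusted p under 0.05, and 3 had an unadjusted p under 0.05 (6.83% of all tested probe sets), namely *G1L2*, *PLA3* and *G1L1*. The lists shared all 4 arrays with the comparison above and add no samples to it. They were chosen with earlier results of these data known, so these counts describe the genes and are not a result about the lists.

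Of the ALOG genes, the family of *G1* and *TAW1* whose members act in the timing of meristem phase change and in spikelet organs, 3 were tested, and they differed in direction. *G1L2* was at 1452 in WT against 2855 in *pho* in the shorter panicles, and at 1019 against 3123 in the longer ones. *G1L1* was at 679 against 373.5 and at 672 against 368, so that each genotype gave almost the same value at both lengths. Their log2 fold changes of *pho* over WT were 1.28 (SE 0.307, adjusted p = 0.550 from limma) and -0.84 (SE 0.291, adjusted p = 0.697 from limma), with the genotypes apart in both. *G1L6* (*TH1*), which acts in the lemma and palea, overlapped between the genotypes, with 263 against 198 in the shorter and 230.5 against 358 in the longer panicles.

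*PLA3*, which encodes a glutamate carboxypeptidase that slows the initiation of leaves, was the other tested gene of the branching list. In the shorter panicles it had a signal of 510.0 in WT against 1152.5 in *pho*, and in the longer ones one of 439.8 against 915. The ratio of *pho* over WT was 2.26 and 2.08, more even over the lengths than those of *RFL* and *NL1*, and its mean log2 difference was 1.09 (SE 0.307, adjusted p = 0.620 from limma). Of the 2 probe sets of *PLA3*, the higher in mean signal was used, and it is of a type that can match other transcripts.

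All 3 tested strigolactone genes had both *pho* arrays above both WT arrays (17.9% of all tested probe sets), though *D3* did so only in the signals as deposited. Strigolactones are hormones that hold back the outgrowth of tillers, and *D17* encodes an enzyme of their synthesis, *D14* their receptor and *D3* the F-box protein that acts with it. The signal of *D14* was 1787 in WT against 2622 in *pho* at 5–8 cm, and 2387 against 10751 at 9–12 cm, so that the *pho* array of 9–12 cm was far above the rest. For *D17* the shorter panicles gave 106 in WT against 198 in *pho*, and the longer ones 129 against 286. The log2 fold changes were 1.36 for *D14* (SE 0.699, adjusted p = 0.762 from limma) and 0.93 for *D17* (SE 0.428, adjusted p = 0.760 from limma). *D3* read 186.2 in WT against 186.3 in *pho* at 5–8 cm, and 115 against 369 at 9–12 cm, and its genotypes overlapped after quantile normalization and after median centring. Between the lengths, *D14* and *D17* were higher at 9–12 cm in both genotypes, with a log2 fold change of 1.22 for *D14* (SE 0.433, adjusted p = 0.456 from limma).

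Of the genes in the list of meristem size with *FON1*, *FOS1*, which encodes a CLE peptide, was at 49.8 in WT against 100.4 in *pho* in the shorter panicles, and at 116 against 479 in the longer ones. In the higher of its 2 probe sets, *LOG*, whose enzyme activates cytokinin in the shoot meristem, was at 407 against 261 and at 428 against 424. Both overlapped between the genotypes as deposited, but after median centring both *pho* values lay above WT for *FOS1*, and after centring or quantile normalization both lay below WT for *LOG*. *FOS1* had passed the filter on low signals only through the *pho* array of 9–12 cm. *WOX4* was at or under 12.9 on every array. Of the genes related to florigen and *TFL1*, *MFT1* was tested, with 263 in WT against 192 in *pho* at 5–8 cm, and 344.5 against 629 at 9–12 cm. The florigen gene *Hd3a* was not tested, with signals between 6.2 and 89.8.

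**Figure D3:**
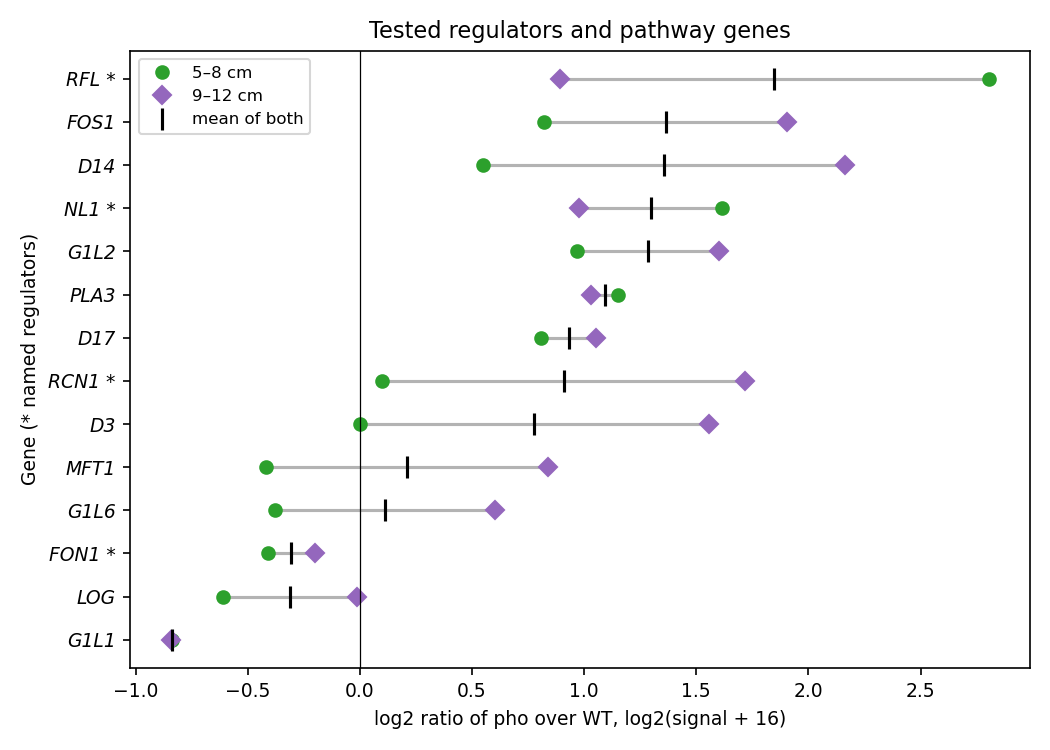
Log2 ratio of *pho* over WT, on the log2(signal + 16) scale, at 5–8 cm (circles), at 9–12 cm (diamonds) and as the mean of both (vertical ticks) for the 4 tested regulators (starred) and the 10 tested genes of the related lists, ordered by the mean. The means run from -0.84 for *G1L1* to 1.85 for *RFL*, and the ratios of *PLA3* and *G1L1* hardly differ between the lengths.

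Signals of markers for the tissues of a panicle differed between the genotypes along with these values. In the signals as deposited, with genotype as the only term, none of the markers had an adjusted p under 0.05 in limma. With panicle length as a block, *OsMADS58* alone among them did (adjusted p = 0.032 from limma). After median centring *OsMADS58* (0.014), *EAT1* (0.030) and *TIP2* (0.030) did, each adjusted p again from limma. Markers of the inflorescence meristem had signals of 158.7 or more on every array. Both *pho* arrays lay above both WT arrays for 4 of the 6 tested, *RFL* among them (17.9% of all tested probe sets). After median centring this no longer held for *OsMADS15*, and after quantile normalization it held for *OsMADS18* as well. *OsMADS14*, which acts in meristem identity, was at 2448 and 1879 in the WT samples, against 5182 and 5303 for *pho*. *OsMADS15* was only 1.10-fold and 1.05-fold higher in *pho* at 5–8 and 9–12 cm. *OSH1* overlapped between the genotypes, with 7553 in WT against 7773 in *pho* at 5–8 cm, and 5843 against 3378 at 9–12 cm. Markers of floral organs were lower in both *pho* arrays than in both WT arrays for 7 of 7 genes (21.1% of all tested probe sets), with a summed signal of 25004 to 28644 in WT and 6111 to 6223 in *pho*. Markers of anther and tapetum were lower in both *pho* arrays for 4 of 5 genes (21.1%), with a summed signal of 4889 to 21182 in WT and 781 to 1018 in *pho*. Most of the upper WT sum was *C6*, the gene that overlapped, with 47.0 and 15333 in WT at 5–8 and 9–12 cm against 28.0 and 204.5 in *pho*. Of the others, *EAT1*, needed for tapetal cell death, was at 2.9 and 36.6 in *pho*. *EAT1*, *TIP2* and *TDR*, like *OsMADS3* and *OsMADS58* among the floral organ markers, passed the filter on low signals only through the WT arrays. Their means in *pho* were 19.75, 62.5, 70.55, 71.5 and 66.85. A gene that passes this way must have the lower mean in *pho*, so these counts are not a result beside the shares of all tested probe sets. The other genes counted as lower, *OsMADS2*, *OsMADS4*, *OsMADS16*, *OsMADS6*, *DL* and *GAMYB*, did not pass this way, with means of 236 to 2082 in *pho*. Leaf markers were higher in both *pho* arrays for 3 of 4 genes (17.9%), with a summed signal of 14773 to 20429 in WT and 27814 to 41836 in *pho*. Most of each sum was *CAB2R*, with 16184.5 in WT against 18912 in *pho* at 5–8 cm, and 12435 against 23703 at 9–12 cm. *GLK1* overlapped, with 786 in WT against 755 in *pho* at 5–8 cm, and 247 against 1136 at 9–12 cm. The part of these tissues in the values of *RFL*, *NL1*, *D14* and the others was not tested.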

How the data were processed

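The authors scanned 1-colour Affymetrix arrays and computed MAS5 signals in GCOS (versions not given in the sources used here), bringing every array to a common overall intensity. The deposited values are linear intensity signals after this scaling. Of 57381 probe sets, 123 controls were left out. Genes were assigned by GEO's platform annotation and named through symbols and synonyms of RefSeq (*japonica* assembly ASM3414082v1, whose coordinates were not used), and the probe set with the highest mean was used. Names that RefSeq gives to another gene (*ASP1*, *FC1*, *RCN1* as a *TFL1*-like gene, *TIP2* of the aquaporins and *MADS2* for *OsMADS18*) were left out of the lists.

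After a filter on mean signal (100), 23929 probe sets on the log2(signal + 16) scale entered lmFit and eBayes of limma 3.58.1 (R 4.3.3; trend on intensity, two-sided), with Benjamini-Hochberg adjustment over all of them and a threshold of 0.05. Genotype was the only term. Length was tested with genotype as a term. The procedure was also run on simulated data with independent noise and no effect of panicle length. That run does not show how it performs on arrays paired by length. In the labels a replicate number stands for a panicle length, which pairs the arrays, and the deviations of arrays of one number from their genotype means correlated at 0.311. Alternatives were pseudocounts of 1 and 64, no filter or a minimum of 200, quantile normalization, median centring, no trend, the replicate block, for length no genotype term, and leaving out each array. Members and lists were chosen with earlier results of these data known. Besides the members, at most 3 tested genes per list were named, by the smallest p, and not every marker named by this rule is printed. *WOX4*, *Hd3a*, *C6*, *OSH1* and *OsMADS3* were named after their values were seen. Python 3.11.15 with pandas 2.3.3 and matplotlib 3.10.9 served for tables and plots.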

Additional observations from a re-analysis of the deposited data

Results flagged for a closer look

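For a number of genes a difference went in opposite directions in the panicles of 5–8 and 9–12 cm, or in WT and *pho*. Each such value rests on 1 array per genotype and length, so the change of direction was not tested, and the *pho* array of 9–12 cm, which stood apart from the others, enters each of them. All values are differences between 2 log2 ratios, *pho* over WT at 9–12 cm minus the same at 5–8 cm, which equal the ratio of 9–12 over 5–8 cm in *pho* minus that in WT. *LAX1* (-1.72) and *G1L6* (0.98) turned direction both between the lengths and between the genotypes, and *MFT1* (1.26) was lower in *pho* at 5–8 cm and higher at 9–12 cm. The difference between the lengths had opposite signs in WT and *pho* for *RFL* (-1.91, with a WT ratio near 0), *D3* (1.55) and *G1L2* (0.63). Among the tissue markers named by the smallest p, the same held for *OsMADS14* (0.41), *OsMADS34* (-1.62), *OsMADS58* (-0.11), *OsMADS6* (0.47), *TIP2* (1.52), *PORA* (1.68) and *CAB2R* (0.71). Outside that rule it also held for the markers *GLK1* (2.19), *OsMADS3* (-1.74), *OsMADS2* (-1.34) and *GAMYB* (-0.71), and for *WOX11* (-0.65), a root marker that was not tested.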

How the results depend on the processing

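In the comparison of *pho* with WT, 0 probe sets were called higher and 0 lower. Median centring of the arrays gave 11 and 40, and with the replicate block (panicle length) 8 and 32 were called. Neither setting called any of the 4 tested regulators, and the block changed none of their calls. For panicle length, 0 and 0 were called, and 13 and 1 with centred arrays, again none of the 4. The causes were not tested. *RFL*, *NL1* and *FON1* kept their direction in all 12 alternatives, with log2 fold changes of *pho* over WT of 0.92 to 2.78, 0.74 to 1.85 and -0.51 to -0.10. *RCN1* turned from 0.91 to -0.31 without the WT array of 5–8 cm and to -1.12 without the *pho* array of 9–12 cm, within -1.12 to 2.94 when arrays were left out. *LAX1*, which was not tested, had values of -0.31 to 0.86. Over the settings that kept all 4 arrays, the lowest adjusted p for *pho* against WT came from limma with the replicate block. It was 0.389 for *RFL*, 0.450 for *NL1*, 0.693 for *FON1* and 0.729 for *RCN1*. For length all 8 alternatives kept the direction of each of the 5 genes, with 1.86 to 5.08 for *RCN1* by pseudocount. Length could not be fitted with an array left out, because no residual degree of freedom remains. Each of the 5 genes has 1 probe set, so no other probe set was tried. With 2 arrays per genotype, their number limits the precision.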
